A study of Mus musculus with 2 samples.

Results

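The genes described here code for the enzymes that load amino acids onto tRNA in the cytosol, for the enzymes of serine, folate-carried one-carbon and methionine-cycle metabolism, for purine and pyrimidine synthesis, and for 3 genes of the amino acid stress response. They were taken from a list of 45 gene symbols, by looking each symbol up in the gene table of the files. The files hold 44 of them among 31056 features. The symbol Mars1 was not in the table and was dropped. A gene annotated under the older symbol Mars is in the files, but it was not counted as a member. By role, the 44 genes are 19 cytosolic tRNA synthetases, 9 enzymes of serine, one-carbon and methionine-cycle metabolism, 10 of purine synthesis, 3 of pyrimidine and CTP synthesis, and Atf4, Ddit3 and Asns.

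The study profiled single regulatory T (Treg) cells, sorted as CD4+ CD25+ T cells, from healthy female mice of the genotype Mycfl/flFoxp3Cre/WT, whose ages are not stated. By genotype the mice carry 2 floxed copies of Myc, a transcription factor of cell growth, and Cre is meant to delete the floxed segment. Cre sits on 1 of the 2 copies of the X-linked gene Foxp3, the defining transcription factor of Treg cells, so Cre-using and Cre-free Treg cells live in the same female. YFP-positive and YFP-negative cells were loaded together into 1 droplet lane for lymph node (LN) and 1 for spleen. Neither the YFP status of a cell nor its animal is given, so there are 2 libraries, no replicate and no test. Every interval below is a 95% interval of counting error. It takes UMIs (unique molecular identifiers, 1 for each captured RNA molecule) as independent, and cells vary more than that.

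After leaving out cells under 500 genes or over 10% mitochondrial UMIs, 4820 LN cells (median 2031 UMIs) and 6543 spleen cells (median 1935 UMIs) remained, and 45 cell barcodes occurred in both libraries. Levels are given as CPM, the UMIs of a gene per 1000000 UMIs. The Treg marker list (Foxp3, Il2ra, Ikzf2, Ctla4, Lrrc32) summed to 1161 CPM in LN and 1217 CPM in spleen, and the B cell list to 189.7 and 131 CPM. Haemoglobin genes summed to 292 CPM in LN and 0.661 CPM in spleen. Myc itself was at 30.9 CPM in LN and 37.9 CPM in spleen. The labels do not name the deleted exons and the kit reads 3′ ends, so a Myc UMI does not separate a deleted from an intact cell. The gene table also lists EYFP, CRE and ICRE. EYFP had 0 UMIs in LN and 2 in spleen, CRE had 0 in both, and ICRE was the one seen at a usable level. What sequence ICRE stands for is not stated, and reading it as the Cre allele is an assumption.

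Aminoacyl-tRNA synthetases join each amino acid to its tRNA and so set the supply line of translation. Serine made from glucose by Phgdh, Psat1 and Psph gives up a carbon unit to folate through Shmt1 in the cytosol or Shmt2 in mitochondria, and Mthfd1, Mthfd1l and Mthfd2 pass that unit on towards purines and thymidylate. Purine synthesis starts from the ribose phosphate made by Prps1, commits at Ppat, and reaches guanine nucleotides through Impdh1 or Impdh2 and Gmps. Cad and Umps build the pyrimidine ring and Ctps makes CTP from UTP. Atf4 is the transcription factor of the amino acid response, Ddit3 is a stress-induced factor downstream of it, and Asns makes asparagine. Activated T cells are known to raise many of these enzymes as they enter growth and division, and both Myc and Atf4 are known regulators of members of the group.

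Myc and its partner Max bind the E-box CACGTG, and Atf4 binds elements that include TGATGNAAN (N is any base). Promoters of 250 bases before to 50 bases after the start were taken from RefSeq on build GRCm38.p6 and searched on both strands. The table held 36 of the 44 genes, without Cars, Hars, Lars, Nars, Pfas, Rars, Vars and Wars. The E-box was in 7 of the 36 (Aars, Atic, Farsb, Iars, Impdh2, Paics and Tars), or 19.4%, beside 8.09% of all 27025 genes in the table. The Atf4 element was in 7 (Aars, Asns, Gars, Iars, Prps1, Tars and Yars), also 19.4%, beside 4.5% of all genes. By role, the E-box was in 4 of 12 synthetases and 3 of 9 purine genes, and the Atf4 element in 5 of 12 synthetases. Neither motif was in the windows of the 9 serine and one-carbon genes or the 3 pyrimidine genes. The windows follow RefSeq starts, and the GENCODE annotation of the same build places some starts elsewhere. The Psat1 windows reach chr19:15925309, and its GENCODE start is at 15947337. The Mthfd2 window reaches chr6:83317854, and its GENCODE start is at 83325908. Promoters at these GENCODE starts were not searched. No E-box overlapped an Atf4 element in these promoters, and a match describes the letters only. Below are 6 promoters, 5′ to 3′ on the strand of the gene, with E-boxes and Atf4 elements in capitals. They are shown because Impdh2, Atic and Paics carry an E-box and recur in the comparisons below, Tars holds both motifs, Asns is the classical Atf4 target, and Phgdh is among the genes with the largest differences and holds neither.
Impdh2 (chr9:108560186-108560485, plus strand): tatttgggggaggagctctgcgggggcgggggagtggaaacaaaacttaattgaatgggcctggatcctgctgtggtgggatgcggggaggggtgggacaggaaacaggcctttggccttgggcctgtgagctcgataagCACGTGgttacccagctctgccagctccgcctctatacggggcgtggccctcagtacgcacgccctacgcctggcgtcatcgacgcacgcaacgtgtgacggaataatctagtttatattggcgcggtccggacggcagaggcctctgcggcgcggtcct
Atic (chr1:71556906-71557205, plus strand): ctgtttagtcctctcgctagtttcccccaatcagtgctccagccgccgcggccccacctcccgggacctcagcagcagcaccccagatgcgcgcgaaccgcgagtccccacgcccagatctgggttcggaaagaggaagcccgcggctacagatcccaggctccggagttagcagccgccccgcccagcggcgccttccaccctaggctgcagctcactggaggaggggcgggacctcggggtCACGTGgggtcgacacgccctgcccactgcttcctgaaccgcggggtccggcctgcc
Paics (chr5:76951052-76951351, plus strand): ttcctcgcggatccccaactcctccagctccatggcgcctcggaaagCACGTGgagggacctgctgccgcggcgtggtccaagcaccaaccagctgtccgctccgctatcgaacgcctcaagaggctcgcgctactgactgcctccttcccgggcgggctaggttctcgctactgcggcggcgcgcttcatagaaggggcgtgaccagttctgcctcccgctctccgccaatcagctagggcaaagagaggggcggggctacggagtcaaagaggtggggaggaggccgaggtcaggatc
Tars (chr15:11399609-11399908, minus strand): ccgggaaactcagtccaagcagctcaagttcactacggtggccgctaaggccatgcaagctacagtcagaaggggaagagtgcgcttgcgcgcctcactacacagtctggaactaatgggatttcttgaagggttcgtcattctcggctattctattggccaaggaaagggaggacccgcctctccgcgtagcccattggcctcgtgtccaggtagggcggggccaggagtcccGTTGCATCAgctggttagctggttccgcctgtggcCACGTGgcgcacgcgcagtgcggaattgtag
Asns (chr6:7693160-7693459, minus strand): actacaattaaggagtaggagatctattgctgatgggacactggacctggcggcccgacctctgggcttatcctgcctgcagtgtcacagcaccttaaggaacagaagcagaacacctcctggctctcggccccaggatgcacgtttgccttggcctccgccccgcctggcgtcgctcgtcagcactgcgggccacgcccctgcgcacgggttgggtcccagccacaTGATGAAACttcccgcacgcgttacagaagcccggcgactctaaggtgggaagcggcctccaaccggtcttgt
Phgdh (chr3:98339920-98340219, minus strand): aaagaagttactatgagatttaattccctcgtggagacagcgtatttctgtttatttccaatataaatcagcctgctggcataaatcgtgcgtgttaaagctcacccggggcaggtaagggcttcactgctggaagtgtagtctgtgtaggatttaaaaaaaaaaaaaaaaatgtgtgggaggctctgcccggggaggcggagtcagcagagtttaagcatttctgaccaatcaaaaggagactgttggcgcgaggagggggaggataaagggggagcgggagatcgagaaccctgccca
The E-box of Impdh2 begins 110 bases before the RefSeq start, that of Atic 7 bases before it and that of Paics 203 bases before it. GENCODE places the start of Impdh2 at 108560286, so by that annotation its E-box lies after the start. Ppat lies on the other strand and, in the GENCODE annotation of the same build, starts 271 bases inside Paics, so the transcripts of these 2 purine genes overlap at their starts. In Tars the Atf4 element is read on the other strand, 16 bases before the RefSeq start, and the E-box lies 19 bases after that start.

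All 44 genes were detected in both libraries and summed to 1738 CPM (1715 to 1761, 22685 UMIs) in LN and 1874 CPM (1853 to 1895, 31189 UMIs) in spleen. A cell held a median of 3 UMIs of the whole set, and 93.4% of LN and 92.8% of spleen cells held at least 1. Each UMI is the 3′ end of 1 molecule, so no scaling to gene length was made, and the order of genes below is an order of captured molecules. Impdh2 and Phgdh were the most abundant of the set, and Sars, the serine tRNA synthetase, was the highest synthetase at 105 CPM in LN and 107 CPM in spleen. The other synthetases ranged from 12.1 CPM (Iars, isoleucine) to 74.5 CPM (Dars, aspartate) in LN, and from 14.7 to 77.1 CPM for the same genes in spleen. Asns was at the lower end, with 18 UMIs in LN and 30 in spleen. Cad (4.75 and 6.61 CPM) and Shmt1 (6.21 and 8.41 CPM) were the next lowest.

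**Figure D1:**
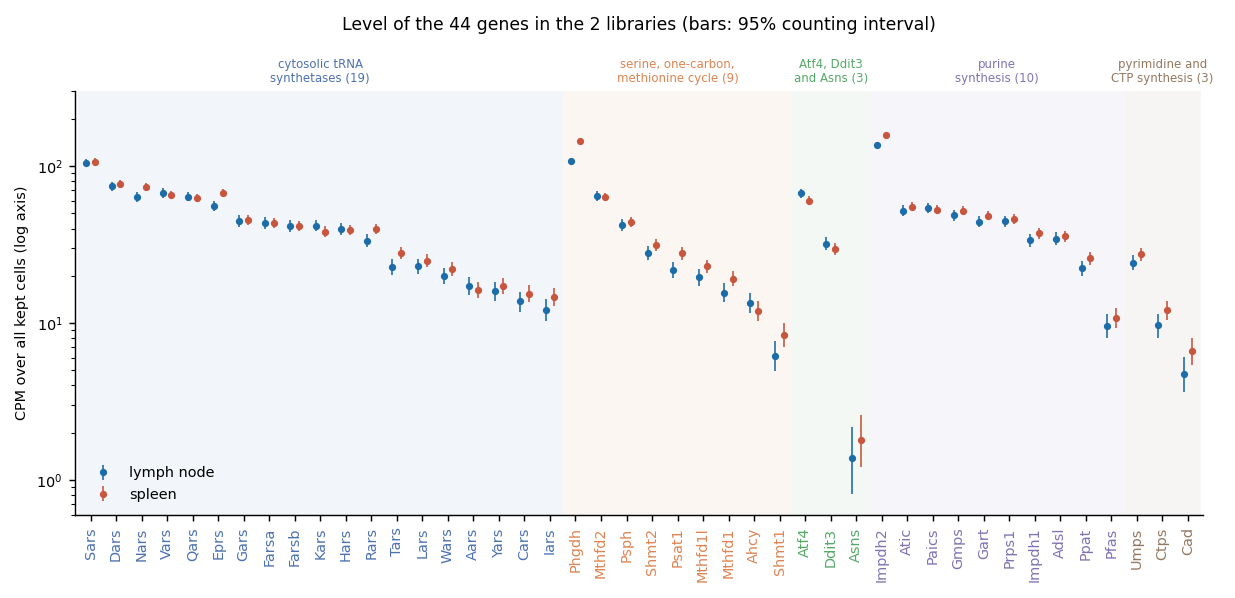
CPM of each of the 44 genes over all kept cells of the lymph node (blue) and spleen (red) libraries, on a log axis, grouped by role, with 95% counting intervals as bars. Levels run from Asns, at 1.38 and 1.8 CPM, to Impdh2, at 136 and 158 CPM, and among the abundant genes Phgdh, at 108 and 145 CPM, shows a visible gap between the libraries.

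The levels were close in both tissues, and no gene differed by 1.5-fold or more. All 44 genes had at least 20 expected UMIs in the smaller library, the minimum for a gene to be counted in a comparison. Of them, 11 were higher and 33 lower in LN, with a median log2 ratio of -0.12, where over all 10380 genes counted it was near 0. Past 1.5-fold, the share over all genes was 3.88% higher and 2.64% lower, beside 0 and 0 of the 44. The intervals excluded equal levels for 1 gene on the higher side and 10 on the lower side. The same was not counted over all genes, so these numbers are not read as a trait of the set.

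Phgdh, the first enzyme of serine synthesis, was at 108 and 145 CPM in LN and spleen (1404 and 2419 UMIs), a ratio of 0.74 (0.692 to 0.791). Psat1, the next enzyme, was at 21.8 and 27.8 CPM (ratio 0.782, 0.672 to 0.908). The serine, one-carbon and methionine-cycle genes together were at 319 and 374 CPM, with a ratio of 0.851 (0.818 to 0.886), and 7 of the 9 were lower in LN. Later steps were closer, since Shmt2 was at 28 and 31.4 CPM (ratio 0.894, 0.78 to 1.02) and Mthfd2 at 64.5 and 63.4 CPM (ratio 1.02, 0.928 to 1.11).

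Among purine genes, Impdh2, which makes xanthosine monophosphate on the way to guanine nucleotides, was at 136 and 158 CPM (1774 and 2625 UMIs), a ratio of 0.862 (0.811 to 0.915). Ppat, the committed step, was at 22.3 and 25.9 CPM (ratio 0.861, 0.739 to 1.0). Of the 10 purine genes 9 were lower in LN, with a summed ratio of 0.919 (0.889 to 0.949). All 3 pyrimidine genes were lower in LN, at 38.7 and 46.2 CPM together, and Cad, the multifunctional first enzyme, had 62 and 110 UMIs (ratio 0.719, 0.518 to 0.99).

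The synthetases had a summed ratio of 0.953 (0.929 to 0.977), with 13 of 19 lower in LN. Eprs, which loads glutamate and proline, was at 55.9 and 67.8 CPM (ratio 0.825, 0.751 to 0.906). Nars (asparagine) stood at 63.7 and 73.9 CPM, a ratio of 0.862, and Tars (threonine) at 22.8 and 27.9 CPM, a ratio of 0.817. On the other side, Kars (lysine) was at 41.8 and 38.3 CPM, Vars (valine) at 67.4 and 65.7 CPM and Qars (glutamine) at 64 and 62.7 CPM, and the intervals of these 3 ratios include 1. Of the stress-response genes, Atf4 and Ddit3 were on the higher side in LN. Atf4 was at 67.3 and 60.2 CPM (878 and 1002 UMIs), a ratio of 1.12 (1.02 to 1.22). Ddit3 was at 32 and 29.7 CPM (ratio 1.08, 0.943 to 1.23), and Asns had a ratio of 0.765 (0.402 to 1.42).

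Most genes outside the list were within 1.5-fold as well. Of 20 mitochondrial synthetases and scaffold proteins of the synthetase complex, 6 were higher and 14 lower in LN, with 0 past 1.5-fold. Of 29 counted genes of neighbouring one-carbon and nucleotide steps, 1 was at least 1.5-fold higher and 1 lower, beside 3.88% and 2.64% of all genes. The intervals excluded equal levels for 3 of the 29 on the higher side and 8 on the lower side. Dck, a salvage kinase of deoxynucleosides, was at 30.9 and 24.8 CPM, short of 1.5-fold. Mthfd2l, a relative of Mthfd2, was at 6.13 and 9.61 CPM. Of 13 counted genes linked to the Atf4 response, 11 were lower in LN, 1 of them by at least 1.5-fold. The intervals excluded equal levels for 7 of the 13 on the lower side and 1 on the higher side. For both groups of genes, the same was not counted over all genes. Cebpb, a transcription factor, was at 52.5 and 36.1 CPM, and Eif4ebp1, an inhibitor of cap-dependent translation, at 16.9 and 24.3 CPM, both short of 1.5-fold. The resting T cell list was at 849 and 1016 CPM in LN and spleen, the effector Treg list at 427 and 555 CPM and the cycling list at 625 and 563 CPM. Their part in the differences between libraries was not tested.

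Cells were then grouped by raw UMIs of 6 genes, counting a cell as positive at 1 UMI or more. Foxp3 marked 20.9% of LN and 18.9% of spleen cells, and ICRE 7.86% and 8.39%. Myc marked 6.1% and 7.03%, and Tnfrsf9, the activation receptor 4-1BB, 18.6% and 17.3%. Klrg1, a receptor of effector Treg cells, marked 4.63% and 3.5%, and Ly6c1, a surface gene of the Ly6 family, 19.1% and 21%. Because a deeper cell shows any gene more often, each cell was also thinned to 1200 UMIs, which kept 4568 LN and 6018 spleen cells. The LN and spleen shares were then 11.1% and 9.94% for Foxp3, 5.76% and 6.26% for ICRE and 2.93% and 3.79% for Myc. They were 11.7% and 11% for Tnfrsf9, 2.63% and 1.91% for Klrg1, and 13.4% and 15% for Ly6c1.

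Cells with 3 or more UMIs of the B cell list, which should lack Foxp3, were used as a rough background. Some may be doublets, droplets that held a B cell and a T cell, and no doublet caller was run. Their shares may therefore exceed the background. The 112 such cells in LN had a median of 3120 UMIs and the 108 in spleen 2310 UMIs. At 1200 UMIs, Foxp3 was in 3.57% (0.982 to 8.89) of these cells in LN and 1.92% (0.234 to 6.77) in spleen, and ICRE in 0.893% and 0.962%. Tnfrsf9 was in 1.79% and 0.962%, Klrg1 in 0 of 112 cells (a count of 0 is taken to allow 3, here up to 2.68%) and 0.962%, and Ly6c1 in 2.68% and 4.81%. Myc, which B cells also use, was in 5.36% and 2.88%. The comparisons below use unthinned cells, where the B-like cells, deeper than most, had higher shares. In LN these were 15.2% for Foxp3, 7.14% for ICRE, 14.3% for Myc, 9.82% for Tnfrsf9, 4.46% for Klrg1 and 13.4% for Ly6c1. In spleen they were 10.2%, 2.78%, 8.33%, 4.63%, 2.78% and 7.41% in the same order. For ICRE and Klrg1 in LN they were close to the shares over all cells, and for Myc they were above them in both libraries. A cell called positive from 1 UMI may be background, which these shares cannot separate from doublets, and a negative cell may express the gene.

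By its value, the summed level of the 44 genes was highest in Myc-positive and Tnfrsf9-positive cells and lowest in ICRE-positive cells in both libraries, although some neighbours in this order have overlapping intervals. In LN it was 2268 CPM in 294 Myc-positive cells, 2099 CPM in 896 Tnfrsf9-positive cells and 1878 CPM in 223 Klrg1-positive cells. Foxp3-positive cells followed at 1791 CPM, with an interval that overlaps that of Klrg1-positive cells, then Ly6c1-positive cells at 1615 CPM and 379 ICRE-positive cells at 1493 CPM. The intervals of this last pair overlap too. In spleen, Tnfrsf9-positive cells were at 2358 CPM (2310.1 to 2408) and Myc-positive cells at 2352 CPM (2283 to 2423), which their intervals do not separate. Klrg1-positive cells followed at 2221 CPM (2130.3 to 2314), with an interval that overlaps both of these. Next came Foxp3-positive cells at 2082 CPM, Ly6c1-positive cells at 1764 CPM and ICRE-positive cells at 1697 CPM, the last pair with overlapping intervals. The median depth was 3277 UMIs in Myc-positive and 1620 UMIs in ICRE-positive cells of LN, and 3194 and 1663 UMIs in spleen. A cell can be in more than 1 of these groups.

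Roles differed in how far they spread over the gates. The serine and one-carbon genes ran from 199 CPM in ICRE-positive to 511 CPM in Myc-positive cells of LN, and from 312 CPM in ICRE-positive to 593 CPM in Klrg1-positive cells of spleen. The synthetases ran from 746 CPM in Ly6c1-positive to 935 CPM in Myc-positive cells of LN and from 799 CPM in Ly6c1-positive to 998 CPM in Tnfrsf9-positive cells of spleen. Atf4, Ddit3 and Asns together went the other way in LN, with 121 CPM in ICRE-positive and 95.7 CPM in Myc-positive cells, although these intervals overlap. Phgdh covered a wide range, from 43.8 CPM in ICRE-positive to 183 CPM in Myc-positive cells of LN, and from 130.1 CPM in Ly6c1-positive to 251 CPM in Klrg1-positive cells of spleen. Its ICRE-positive value in LN rests on 32 UMIs. Sars covered a narrow one, from 101 CPM in Myc-positive to 128 CPM in Klrg1-positive cells of LN.

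**Figure D2:**
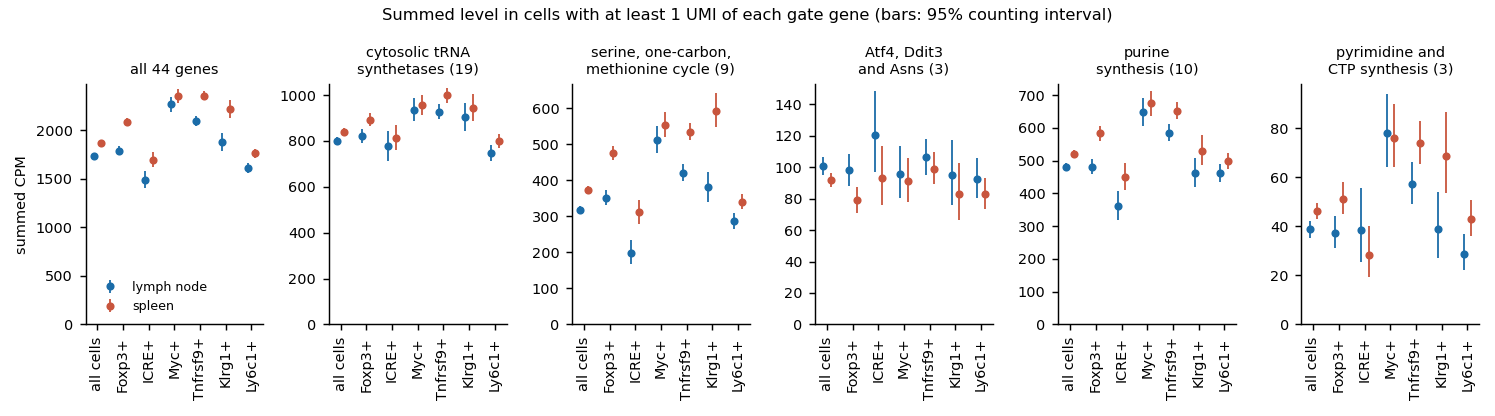
Summed CPM of all 44 genes and of each role in all cells and in cells with at least 1 UMI of each gate gene, for lymph node (blue) and spleen (red), with 95% counting intervals. In LN, serine and one-carbon genes run from 199 CPM in ICRE-positive to 511 CPM in Myc-positive cells, while synthetases run from 746 CPM in Ly6c1-positive to 935 CPM in Myc-positive cells.

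The level also moved with the depth and the division state of a cell, and both stand beside every comparison of gated cells. With the cells of a library split into 5 equal depth classes by UMIs, the set was at 1413 CPM in the shallowest and 2037 CPM in the deepest class of LN, and at 1528 and 2281 CPM in spleen. Cells with 2 or more UMIs of a cycling list (403 in LN, 555 in spleen) held 2521 and 2846 CPM, against 1539.8 and 1644 CPM in the rest. The cycling cells were also deeper, with a median of 5095 against 1953 UMIs in LN and 4523 against 1864 UMIs in spleen. Leaving them out therefore changes depth as well as division. The serine and one-carbon genes were at 607 and 721 CPM in the cycling cells and 246 and 292 CPM in the others. The Atf4, Ddit3 and Asns sum was not higher there, at 93.7 and 80.7 CPM against 102 and 94.4 CPM. Of the deepest 5% of cells, where doublets would lie, 163 of 241 in LN and 220 of 328 in spleen were also cycling by this rule.

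Tnfrsf9 marks T cells with recent antigen receptor signalling, and cells with its transcript were compared with those without. Psat1 and Phgdh of serine synthesis, Shmt2, Ctps and the purine genes Gart and Ppat were at least 1.5-fold higher in Tnfrsf9-positive cells of both libraries. The synthetases were higher by less, and Atf4 and Mthfd2 were near level. In LN 10 of 41 counted members were at least 1.5-fold higher and 0 lower, beside 7.98% and 3.95% of 8094 genes. In spleen 13 of 43 counted members were at least 1.5-fold higher and 0 lower, beside 10.1% and 4.99% of 8456 genes. Of the 41 members counted in each library, 37 were above a ratio of 1 in both, where 46.7% of all genes were. At least 1.5-fold higher in both were 7 of these members and 432 of 8015 genes. The summed ratio was 1.29 (1.26 to 1.33) in LN and 1.36 (1.33 to 1.4) in spleen.

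Psat1, the aminotransferase of serine synthesis, was at 37.9 and 16.6 CPM in positive and negative cells of LN (119 and 165 UMIs, ratio 2.28, 1.79 to 2.9). In spleen it was at 56.8 and 19.1 CPM (ratio 2.97, 2.46 to 3.58). Phgdh was at 158 and 91.5 CPM in LN (ratio 1.73, 1.55 to 1.94) and at 213 and 125 CPM in spleen (ratio 1.7, 1.56 to 1.85). Both serine enzymes were thus past 1.5-fold in each library. Shmt2, the mitochondrial source of one-carbon units, had ratios of 1.68 (1.34 to 2.09) and 1.67 (1.38 to 2.01). Mthfd2, which works after it in the same organelle, was at 57.4 and 66.8 CPM in LN (ratio 0.86, 0.725 to 1.02) and 62 and 63.8 CPM in spleen (ratio 0.972, 0.838 to 1.12). Shmt1, the cytosolic form, had 46 and 35 UMIs in LN, too few to be counted, and 84 and 56 UMIs in spleen (21.9 and 4.37 CPM, ratio 5.0, 3.53 to 7.15). Without cycling cells that ratio was 3.78.

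Ctps, which makes CTP, was at 17.5 and 7.16 CPM in LN (ratio 2.45, 1.69 to 3.53) and 21.9 and 9.14 CPM in spleen (ratio 2.4, 1.79 to 3.2). The 3 pyrimidine genes together had ratios of 1.74 (1.44 to 2.09) and 1.95 (1.68 to 2.26). In purine synthesis, Gart, a trifunctional enzyme of ring assembly, had ratios of 1.73 (1.45 to 2.06) and 1.59 (1.37 to 1.85), and Ppat 1.68 (1.31 to 2.15) and 1.74 (1.42 to 2.14). Impdh1, the less abundant form of the guanine-branch enzyme, stayed near level at 0.915 (0.724 to 1.15) and 0.903 (0.739 to 1.1). The more abundant form, Impdh2, had ratios of 1.34 and 1.44. The synthetases had summed ratios of 1.22 (1.17 to 1.27) and 1.26 (1.21 to 1.31), and 18 of 19 were above 1 in LN and 18 in spleen, with 2 and 1 past 1.5-fold. Atf4 was level, at 67.6 and 67.2 CPM in LN and 61.5 and 59.8 CPM in spleen. Asns was below the minimum, with 12 and 6 UMIs in positive and negative cells of LN and 18 and 12 in spleen.

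These ratios moved with division and depth. The cycling list was at 978 against 513 CPM in LN and 1039 against 421 CPM in spleen, and the median depth was 2459.5 against 1964 UMIs and 2434 against 1869 UMIs. With cycling cells left out, the summed ratios were 1.09 (1.04 to 1.13) and 1.15 (1.12 to 1.19), and 2 of 38 and 5 of 40 members were past 1.5-fold. With negative cells weighted to the depth of the positive ones, they were 1.22 and 1.23 in 10 depth bins. In 50 bins the summed log2 ratios were 0.19 and 0.21, with 2 and 6 members past 1.5-fold. Without the deepest 5% of cells 3 and 4 members were past it. Here and below, shares over all genes are given only for the comparison as first made. Whether a changed count of members is particular to them was therefore not tested. Shmt2 in LN was at 0.962 without cycling cells, while Psat1 was at 1.93 and 2.49 and Ppat at 1.71 and 1.75. By depth, the gap was widest in the deepest class, at 2461 against 1823 CPM in LN and 2759 against 2023 CPM in spleen. In the 4 shallower classes of LN the intervals of positive and negative cells overlapped. In spleen they overlapped in all shallower classes but the middle one, where the levels were 1749 and 1546 CPM.

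The positive cells also held more of the effector Treg list (499 against 405 CPM in LN, 817 against 477 CPM in spleen) and of the NK list (253 against 92.9 and 312 against 58.7 CPM), and less of the B cell list (72.1 against 227 and 34.9 against 160.1 CPM). No marker of the B cell list was at 0 in either group, and of the NK list Klre1 was at 0 in the positive cells of spleen. The part of these lists in the result was not tested. Without cells bearing B, CD8 T, NK or myeloid markers, 6 members in LN were past 1.5-fold. With Myc-positive cells left out, the summed ratios were 1.21 (1.17 to 1.25) and 1.3 (1.26 to 1.33), with 7 and 11 members past 1.5-fold. Of genes outside the list, Nme1, a nucleoside diphosphate kinase, had ratios of 1.72 and 1.73, and Dut, which removes dUTP, 1.79 and 1.96. The stress gene Ddit4, an inhibitor of mTORC1 signalling, had ratios of 0.827 and 0.834, and Slc38a2, a transporter of neutral amino acids, 0.806 and 0.741.

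**Figure D3:**
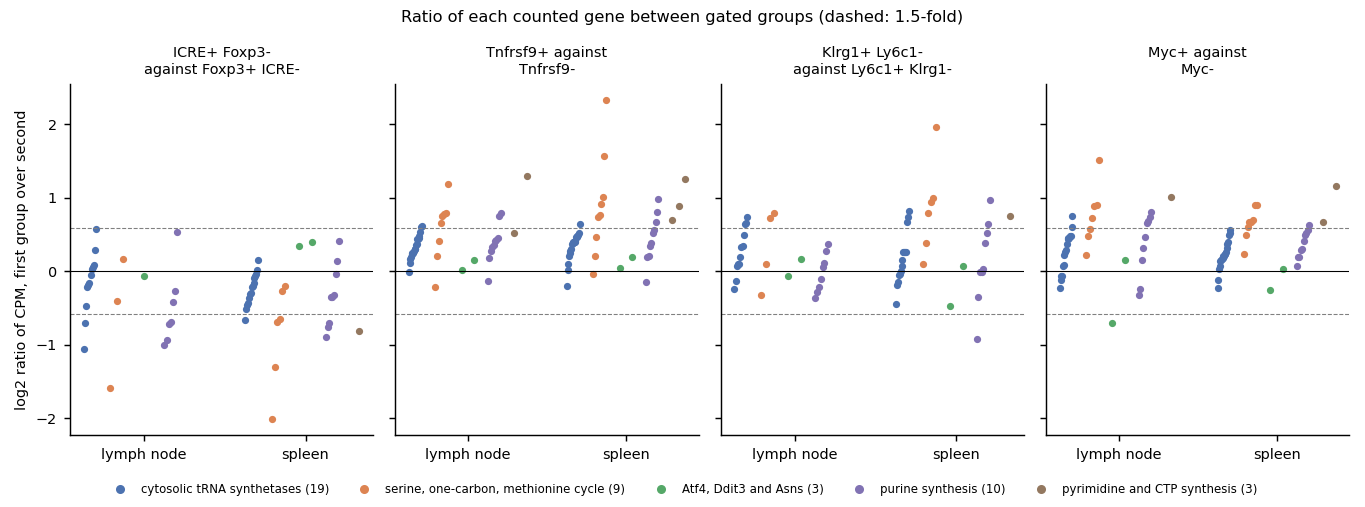
Log2 ratio of CPM between gated groups for each gene with at least 20 expected UMIs, coloured by role, in lymph node and spleen for 4 comparisons, with dashed lines at 1.5-fold. In Tnfrsf9-positive cells 38 of 41 points in LN lie above 0, whereas in ICRE-positive against Foxp3-positive cells 7 points in LN and 9 in spleen lie below the lower dashed line and 0 above the upper one.

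Cells with a Myc transcript were compared with cells without one. Psat1, Phgdh, Shmt2, Umps and Impdh2 were at least 1.5-fold higher in Myc-positive cells of both libraries, and Atic in those of LN. Ddit3 and Sars were on the lower side. In LN 11 of 36 counted members were at least 1.5-fold higher and 1 lower, beside 5.42% and 9.83% of 6050 genes. In spleen 9 of 41 counted members were at least 1.5-fold higher and 0 lower, beside 3.57% and 5.85% of 6784 genes. The median log2 ratio of the members was 0.44 and 0.30, where that of all genes was -0.09 and -0.07. At least 1.5-fold higher in both libraries were 6 of 36 members and 124 of 6024 genes. The summed ratio was 1.36 (1.31 to 1.41) in LN and 1.3 (1.26 to 1.34) in spleen.

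Impdh2, whose promoter is printed above, was at 219 and 126 CPM in Myc-positive and Myc-negative cells of LN (309 and 1465 UMIs, ratio 1.74, 1.54 to 1.97). In spleen it was at 230.5 and 149 CPM (427 and 2198 UMIs, ratio 1.55, 1.39 to 1.72). Atic, which closes the purine ring, was at 78.7 and 48.9 CPM in LN (ratio 1.61, 1.3 to 1.98) and 75.6 and 52.7 CPM in spleen (ratio 1.43, 1.19 to 1.72). Paics, also with an E-box, had lower ratios of 1.38 and 1.14. Phgdh and Psat1, without the motif in the windows searched, were among the highest. The windows of Psat1 do not hold its GENCODE start. Aars, Farsb, Iars and Tars also carry an E-box, and their ratios are not given here. Whether the motif goes with the ratio was not tested. Phgdh was at 183 and 98.4 CPM in LN (ratio 1.86, 1.62 to 2.13) and 217 and 136 CPM in spleen (ratio 1.59, 1.43 to 1.77). Psat1 was at 51.8 and 18.1 CPM (ratio 2.86, 2.16 to 3.75) and 47.5 and 25.4 CPM (ratio 1.87, 1.47 to 2.37).

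Shmt2 had ratios of 1.85 (1.4 to 2.42) and 1.87 (1.49 to 2.33). Here Mthfd2 was on the higher side as well, at 86.5 against 61.8 CPM in LN and 85.3 against 60.7 CPM in spleen, short of 1.5-fold. Umps, which completes UMP, was at 44 and 21.9 CPM in LN (ratio 2.01, 1.5 to 2.66) and 41 and 25.8 CPM in spleen (ratio 1.59, 1.23 to 2.04). The synthetases had summed ratios of 1.19 (1.12 to 1.26) and 1.16 (1.1 to 1.22), and Sars was at 0.959 (0.801 to 1.14) and 0.916 (0.782 to 1.07). Ddit3 was at 20.6 and 33.4 CPM in LN (29 and 389 UMIs, ratio 0.616, 0.407 to 0.898) and at 25.4 and 30.3 CPM in spleen (ratio 0.837, 0.606 to 1.13). The difference between the libraries was not tested.

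Myc-positive cells were deeper (median 3277 against 1970 UMIs in LN, 3194 against 1879 UMIs in spleen) and held more of the cycling list (1287 against 545 and 689 against 547 CPM). With cycling cells left out, the summed ratios were 1.09 (1.03 to 1.16) and 1.07 (1.02 to 1.11), and 0 of 25 and 1 of 33 members were at least 1.5-fold higher. With the deepest 5% left out they were 1.05 (0.986 to 1.11) and 1.02 (0.972 to 1.07), with 0 and 0 members at least 1.5-fold higher. Psat1 in LN was then at 0.809, and at 0.90 without cycling cells. In the 4 shallower depth classes the intervals of Myc-positive and Myc-negative cells overlapped in both libraries. In the deepest class the levels were 2528 against 1924 CPM in LN and 2667 against 2190.2 CPM in spleen. With Myc-negative cells weighted to the depth of Myc-positive ones in 50 bins, 1 member in each library was at least 1.5-fold higher. The B cell list was at 257 against 181 CPM in LN, with 4 of 4 counted markers above 1, and at 100.4 against 135 CPM in spleen. The T cell list was at 3347 against 4208 and 3572 against 4304 CPM, with 0 of 5 markers above 1 in either library. The myeloid list was at 124 against 159 and 274 against 178 CPM, with Csf1r and C1qa at 0 in the Myc-positive cells of both. Without cells bearing markers of other lineages, 5 members in LN were at least 1.5-fold higher, in place of 11. The part of these lists in the result was not tested. A Myc UMI is itself easier to capture in a deep cell, so depth and Myc level cannot be told apart here.

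Outside the list, Nme1 had ratios of 1.72 and 1.63 in Myc-positive cells and Gcsh, of the glycine cleavage system, 2.13 and 2.31. Ddit4 was lower, at 154 against 326 CPM in LN and 170.03 against 326 CPM in spleen, and Slc38a2 had ratios of 0.621 and 0.78. Of the counted neighbouring one-carbon and nucleotide genes, 10 of 24 in LN and 5 of 25 in spleen were at least 1.5-fold higher and 0 lower. Over all genes counted, 5.42% in LN and 3.57% in spleen were at least 1.5-fold higher, and 9.83% and 5.85% lower.

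**Figure D4:**
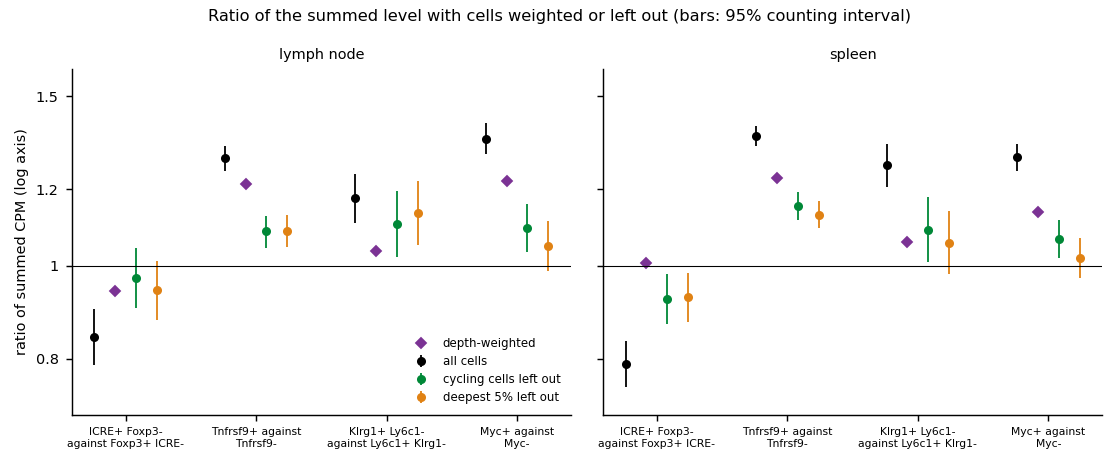
Ratio of the summed CPM of the 44 genes between gated groups, on a log axis, for all cells (black), with the second group weighted to the depth of the first (purple diamonds, without interval), without cycling cells (green) and without the deepest 5% of cells (orange), with 95% counting intervals. The Myc ratio of 1.36 in LN is 1.09 without cycling cells and 1.05 without the deepest cells, and the ICRE ratio of 0.79 in spleen is 1.01 after weighting.

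The comparison nearest to the design of the mice was ICRE-positive Foxp3-negative cells against Foxp3-positive ICRE-negative cells, both chosen by a captured transcript. Phgdh, Impdh2 and Atic were at least 1.5-fold lower in the ICRE-positive cells of both libraries, and Paics and Vars in those of LN. The synthetases as a group and Atf4 were nearer to level. In LN 354 cells were compared with 982, and 0 of 23 counted members were at least 1.5-fold higher and 7 lower, beside 9.64% and 8.61% of 3765 genes. In spleen 505 cells were compared with 1195, and 0 of 33 counted members were at least 1.5-fold higher and 9 lower, beside 10.3% and 9.06% of 4913 genes. Over the 23 members counted in each library, 14 were below 1 in both and 2 above, where the shares over all genes were 29.4% and 45.2%. At least 1.5-fold lower in both were 3 of these members and 181 of 3757 genes. The summed ratio was 0.843 (0.787 to 0.902) in LN and 0.79 (0.749 to 0.834) in spleen.

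Phgdh was at 44.8 and 135 CPM in ICRE-positive and Foxp3-positive cells of LN (29 and 472 UMIs, ratio 0.333, 0.22 to 0.484). In spleen it was at 123 and 192 CPM (116 and 847 UMIs, ratio 0.64, 0.522 to 0.778). The serine and one-carbon genes together were at 199 and 356 CPM in LN (ratio 0.56, 0.464 to 0.672) and 285 and 476 CPM in spleen (ratio 0.60, 0.526 to 0.681). Shmt2 had 12 and 96 UMIs in LN, too few to be counted, and was at 14.9 and 36.6 CPM in spleen (ratio 0.406, 0.217 to 0.702). Mthfd2 had ratios of 0.752 (0.512 to 1.07) and 0.833 (0.611 to 1.12), with intervals that include 1.

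Impdh2 was at 83.4 and 138 CPM in LN (ratio 0.605, 0.448 to 0.803) and 113 and 184 CPM in spleen (ratio 0.611, 0.494 to 0.748). Atic was at 34 and 54.8 CPM (22 and 192 UMIs) in LN and 37.1 and 69.3 CPM (35 and 305 UMIs) in spleen. Paics, which acts in the middle of the purine pathway, was at 35.5 and 68.2 CPM in LN (ratio 0.521, 0.324 to 0.80) and 49.9 and 62.3 CPM in spleen (ratio 0.801, 0.575 to 1.1). Prps1, the enzyme before the pathway, was on the other side, at 61.8 and 42.5 CPM in LN (ratio 1.45, 0.998 to 2.07) and 50.9 and 46.3 CPM in spleen (ratio 1.1, 0.785 to 1.51), with intervals that include 1. Ppat had 12 and 71 UMIs in LN and was at 17 and 28.6 CPM in spleen (ratio 0.593, 0.329 to 1.0). Cad had 1 and 14 UMIs in LN and 3 and 32 in spleen, under the minimum.

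Among synthetases Vars was at 43.3 and 70.2 CPM in LN (ratio 0.616, 0.401 to 0.913) and 48.8 and 67.5 CPM in spleen (ratio 0.724, 0.518 to 0.99). Nars stood at 77.3 and 63.1 CPM in LN and 75.4 and 74.5 CPM in spleen. All 19 together had a ratio of 0.964 (0.876 to 1.06) in LN and 0.888 (0.82 to 0.96) in spleen. Atf4 was at 64.9 and 67.7 CPM (42 and 237 UMIs) in LN and 65.8 and 49.8 CPM (62 and 219 UMIs) in spleen, and both ratio intervals include 1. Asns had 0 UMIs in ICRE-positive cells of both libraries, against 8 in LN and 23 in spleen in the larger Foxp3-positive groups. A count of 0 is again taken to allow up to 3 UMIs, and with so few UMIs no ratio is given.

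The groups differed in depth and state as well. ICRE-positive cells had a median of 1606 UMIs against 2859.5 in LN and 1635 against 2941 in spleen. Of them 33.9% were in the shallowest depth class of LN and 24.8% in that of spleen, against 5.09% and 5.94% of Foxp3-positive cells. The cycling list was at 175 against 921 CPM in LN and 159 against 1143 CPM in spleen, and the effector Treg list at 83.4 against 753 and 148 against 1036 CPM. The resting T cell list was higher in ICRE-positive cells, at 1565 against 579.8 and 1474 against 717 CPM. With Foxp3-positive cells weighted to the depth of the ICRE-positive ones, the summed ratio was 0.941 in LN and 1.01 in spleen. Phgdh was then at 0.628 and 1.13, and Impdh2 at 0.908 and 0.913. With 50 depth bins in place of 10, Impdh2 in LN was on the other side, at 0.067 on the log2 scale. Without cells bearing markers of other lineages, 3 members in spleen were at least 1.5-fold lower. Without cycling cells the summed ratios were 0.971 (0.903 to 1.04) and 0.923 (0.87 to 0.98), with 3 and 0 members at least 1.5-fold lower. The B cell list was at 169.97 against 79.4 CPM in LN and 60.5 against 62 CPM in spleen. Depth, division and allele cannot be told apart in these gates.

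Outside the list, Rrm2, a subunit of ribonucleotide reductase that is also in the cycling list, had 3 and 227 UMIs in LN and 2 and 533 in spleen. Tyms, the thymidylate synthase, also in that list, was at 17 and 52 CPM in LN and 11.7 and 64.5 CPM in spleen. Among stress genes Ddit4 was higher, at 456 against 259.8 CPM in LN (ratio 1.75, 1.53 to 2.0) and 398 against 249 CPM in spleen (ratio 1.6, 1.42 to 1.8). Slc38a2 was higher too, at 215 against 119 CPM and 226 against 139 CPM. Of the counted neighbouring one-carbon and nucleotide genes, 6 of 18 in LN and 12 of 23 in spleen were at least 1.5-fold lower, and 1 and 0 higher. Of the other Atf4-linked genes, 2 of 6 and 2 of 8 were at least 1.5-fold higher and 1 and 2 lower. Over all genes counted, 8.61% in LN and 9.06% in spleen were at least 1.5-fold lower, and 9.64% and 10.3% higher.

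**Figure D5:**
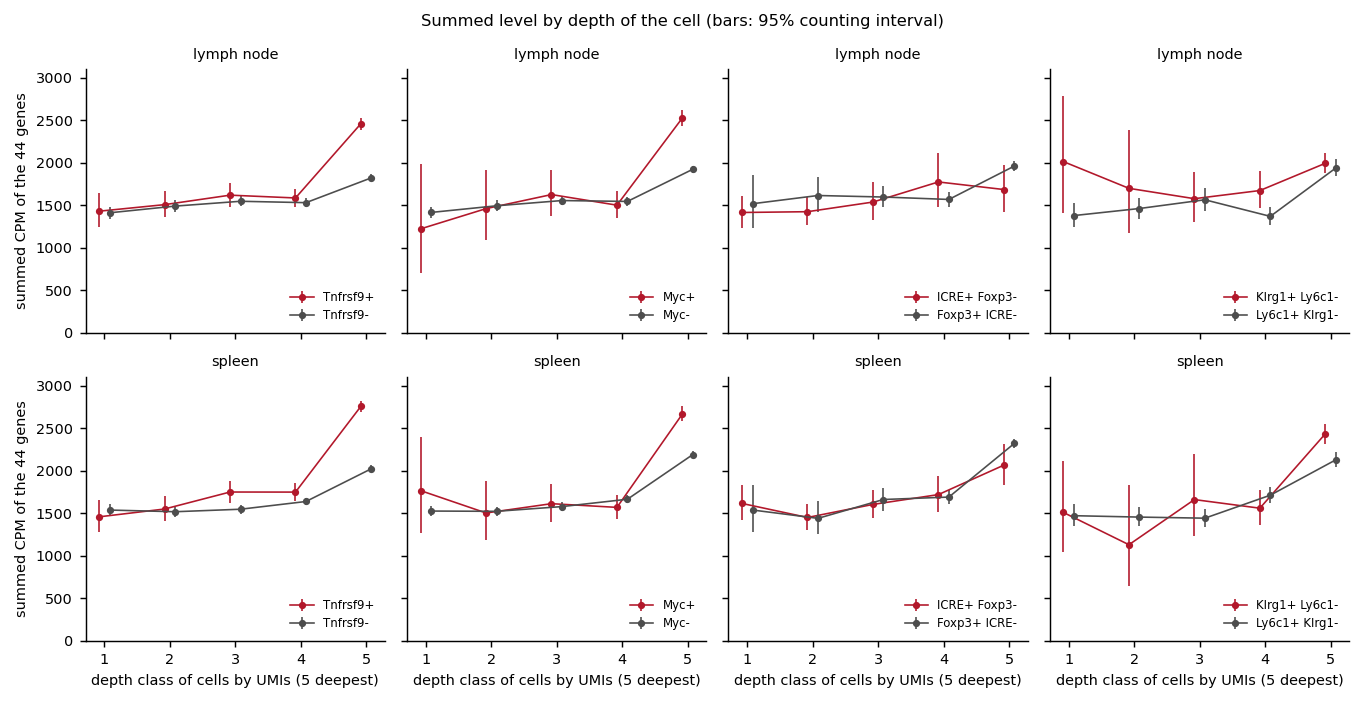
Summed CPM of the 44 genes by depth class of cells ordered by UMIs (1 shallowest, 5 deepest), for the first (red) and second (grey) group of each comparison, in lymph node (upper row) and spleen (lower row), with 95% counting intervals. Tnfrsf9-positive and Myc-positive cells part from the rest in the deepest class, at 2461 against 1823 CPM and 2528 against 1924 CPM in LN.

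Klrg1-positive Ly6c1-negative cells were compared with Ly6c1-positive Klrg1-negative cells. Phgdh, Psph and Gars were at least 1.5-fold higher in the Klrg1-positive cells of both libraries. Impdh1 was at least 1.5-fold lower in spleen, and Impdh2 was on the lower side in both. In LN 5 of 26 counted members were at least 1.5-fold higher and 0 lower, beside 16.3% and 6.76% of 4485 genes. In spleen 10 of 33 counted members were at least 1.5-fold higher and 1 lower, beside 21.4% and 8.68% of 4645 genes. Of 26 members counted in each library 50% were above 1 in both, where 51.1% of all genes were. Below 1 in both were 3 members and 25.3% of all genes. At least 1.5-fold higher in both were 3 of the 26 members and 480 of 4308 genes, so the share of members was close to that of all genes. At least 1.5-fold lower in both were 0 members and 159 genes. The summed ratio was 1.17 (1.11 to 1.25) in LN and 1.27 (1.21 to 1.34) in spleen.

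Phgdh was at 159 and 95.7 CPM in LN (133 and 213 UMIs, ratio 1.66, 1.32 to 2.07) and 248 and 125 CPM in spleen (224 and 402 UMIs, ratio 1.99, 1.68 to 2.35). Psph, the last step of serine synthesis, was at 59.6 and 34.6 CPM in LN (ratio 1.72, 1.18 to 2.49) and 76.4 and 39.8 CPM in spleen (ratio 1.92, 1.41 to 2.6). Gars, which loads glycine, had ratios of 1.58 (1.08 to 2.29) and 1.77 (1.28 to 2.42). Dars had ratios of 1.26 (0.936 to 1.67) and 1.67 (1.3 to 2.14), Sars of 1.26 and 1.2, and Paics of 1.29 (0.90 to 1.82) and 1.95 (1.45 to 2.61). Impdh2 went the other way, at 112 and 129.9 CPM in LN (ratio 0.863, 0.676 to 1.09) and 119.7 and 153 CPM in spleen (ratio 0.781, 0.628 to 0.964). Impdh1 was at 31 and 40 CPM in LN and 23.3 and 44.1 CPM in spleen (ratio 0.527, 0.317 to 0.837). Prps1 had ratios of 0.824 and 0.988.

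The Klrg1-positive group was deeper, with a median of 3170.5 against 1792 UMIs in LN and 3368 against 1867 UMIs in spleen. The cycling list was at 1314 against 458 CPM and 2534 against 322 CPM. With Ly6c1-positive cells weighted to the same depth, the summed ratios were 1.04 and 1.06, and Phgdh was at 1.11 and 1.32 and Psph at 1.54 and 1.59. With 50 bins in place of 10, the summed log2 ratio in spleen was -0.11, on the other side of 0. Impdh2 was lower still, at 0.688 and 0.596 after weighting. It was at 0.518 and 0.401 without cycling cells, where the Klrg1-positive groups held 160 and 143 cells, but with both gates at 2 UMIs or more its log2 ratio in spleen was 0.028. Ribosomal protein genes took 27.1% of UMIs in Klrg1-positive and 35.4% in Ly6c1-positive cells of LN, and 24.7% and 35.7% in spleen. This share enters every CPM, and with ribosomal and mitochondrial genes left out of the totals the summed log2 ratios were 0.052 and 0.11.

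The summed marker lists of other cell types differed between these groups as well, though few single markers could be counted. The NK list was at 187 against 50.3 CPM in LN and 97.5 against 32.3 CPM in spleen, with Klre1 at 0 in the Ly6c1-positive cells of LN and Ncr1, Klrb1c and Klre1 at 0 in both groups of spleen. The NK values of spleen are thus those of Nkg7 alone. The myeloid list was at 215 against 126 and 243 against 142 CPM, with Csf1r and C1qa at 0 in the Klrg1-positive cells of both and Lyz2 at 0 in those of LN. In each library 1 NK and 1 myeloid marker had enough UMIs to be counted, so the presence of these cell types is not shown. The B cell list was at 147 against 125 and 101 against 50.6 CPM. Without cells bearing such markers, 2 and 2 members were at least 1.5-fold higher, in place of 5 and 10, and the summed log2 ratio in spleen was 0.13. Outside the list, Rrm2 had ratios of 3.21 and 11.9, the transcription factor Cebpb 2.58 and 3.86, Ddit4 0.937 and 0.759 and Slc38a2 0.574 and 0.676.

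The activation comparison was repeated within ICRE-positive Foxp3-negative cells and within Foxp3-positive ICRE-negative cells. In LN the set was at 1409 and 1543 CPM in 61 Tnfrsf9-positive and 293 Tnfrsf9-negative ICRE-positive cells (ratio 0.914, 0.767 to 1.08). In spleen it was at 1856 and 1603 CPM in 80 and 425 cells (ratio 1.16, 1.02 to 1.31). Within Foxp3-positive cells it was at 2145 and 1654 CPM in 234 and 748 cells of LN, a ratio of 1.3 (1.23 to 1.37), and at 2410.5 and 1933 CPM in 299 and 896 cells of spleen, a ratio of 1.25 (1.19 to 1.3). The difference between ICRE-positive and Foxp3-positive cells was not tested. By role, serine and one-carbon genes had ratios of 1.58 (1.41 to 1.77) and 1.44 (1.32 to 1.57) within Foxp3-positive cells, and of 1.17 (0.729 to 1.81) and 1.15 (0.838 to 1.56) within ICRE-positive cells.

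Cycling cells made up 23.9% of Tnfrsf9-positive and 10.7% of Tnfrsf9-negative Foxp3-positive cells in LN, and 29.8% and 11.9% in spleen. Without them the ratios within Foxp3-positive cells were 1.0 (0.929 to 1.08) and 1.04 (0.973 to 1.11), and those within ICRE-positive cells 0.919 (0.768 to 1.09) and 0.976 (0.842 to 1.13). All 4 intervals then include 1.

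Some of these values may hold reads of another gene. The last 300 bases of the transcripts of 7 members match those of another gene over at least 90 bases at 95% identity or more. Phgdh has such copies in 13 other genes, Impdh2 in 1 pseudogene (Impdh2-ps) and Iars in 1 predicted gene, and none of these is in the gene table. Aars shares its end with Exosc6 on the same strand, which is in it. Farsb overlaps Sgpp2, Gart overlaps Gm15964 and Shmt1 overlaps Smcr8, and these 3 partners are in the table but lie on the other strand. Ddit3 is not among the 7, but another feature annotated as Ddit3 overlaps it on the same strand and is in the gene table. A single feature was counted as Ddit3, and which of them it was remains unchecked. Whether counting used strand, and how reads that match 2 genes were treated, is not stated. The values of these 7 genes and of Ddit3 are therefore less certain than the others.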

How the data were processed

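Single cells of 2 libraries, 1 from lymph node and 1 from spleen, were read as deposited. The deposited values are whole-number UMI counts per gene and cell, and no normalisation was found in them. The submitters' processing notes name Cell Ranger 3.0.1 and the genome build mm10. The sources used here do not give the counting options or the added sequences.

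Cells with under 500 genes or over 10% mitochondrial UMIs were left out. UMIs were summed over the cells of a group and divided by the UMIs of all genes in those cells. Intervals are exact Poisson, conditional binomial (for ratios) or Clopper-Pearson (for shares) intervals at 95%. A gene was counted in a comparison when its expected UMIs in the smaller group reached 20, and the threshold was 1.5-fold. With 1 library per tissue no test was run. The genes named are up to 6 per side with the ratio bound farthest from 1, with the same sign in both libraries for the gated comparisons, and a set of key enzymes. Other genes named, such as Shmt1 in Tnfrsf9-positive cells, were chosen after their values were seen. Of other pathway genes up to 2 per side are named. The members, lists and comparisons were chosen with earlier results of these data known.

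Alternatives were no cell filter, depth weights in 10 bins, equal weight per cell, other totals, cycling cells, other lineages (2 or more marker UMIs) or the deepest 5% left out, gates at 2 UMIs, a minimum of 50 expected UMIs, and cells thinned to 1200 UMIs. Depth weights in 50 bins, and leaving Myc-positive or Tnfrsf9-positive cells out of the comparison of the other gate, were added after seeing the data. No doublet caller was run. Python 3.11.15, numpy 2.4.6, scipy 1.17.1, pandas 2.3.3 and matplotlib 3.10.9 were used, and the scripts were checked on simulated data. Promoters came from RefSeq (GRCm38.p6), and gene models and transcript ends from GENCODE vM21.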

Additional observations from a re-analysis of the deposited data

How the results depend on the processing

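Comparisons are named here by the gate of their first group, and where 2 values are given, LN stands first and spleen second. As reported, the log2 ratios of the summed level were -0.11 between tissues, -0.25 and -0.34 for ICRE, 0.37 and 0.45 for Tnfrsf9, 0.23 and 0.35 for Klrg1, 0.44 and 0.37 for Myc, -0.13 and 0.21 for Tnfrsf9 within ICRE-positive cells and 0.37 and 0.32 for Tnfrsf9 within Foxp3-positive cells. Over the alternatives run, 40 of 114 summed ratios stayed inside the counting interval of the reported value, 70 moved outside it, and 4 turned to the other side of 0. Of the counts of members past 1.5-fold, 106 of 182 stayed within 1.5 times the reported count, and of the other values 7 turned to the other side of 0. With the second group weighted to the depth of the first in 10 bins, the summed log2 ratios were -0.088 and 0.0093 for ICRE, 0.28 and 0.30 for Tnfrsf9, 0.050 and 0.082 for Klrg1, 0.29 and 0.18 for Myc and 0.20 for Tnfrsf9 within Foxp3-positive cells in spleen. The counts of members at least 1.5-fold higher were 6 for Tnfrsf9 in LN, 3 and 4 for Klrg1 and 3 and 1 for Myc. The counts at least 1.5-fold lower were 1 for ICRE in spleen, 3 for Klrg1 in spleen and 0 for Myc in LN. Phgdh for ICRE in spleen turned to 0.17 on the log2 scale. With 50 such bins, the summed log2 ratios were -0.076 and -0.0011 for ICRE, 0.19 and 0.21 for Tnfrsf9, 0.094 and -0.11 for Klrg1, 0.15 and 0.12 for Myc and 0.23 and 0.070 for Tnfrsf9 within Foxp3-positive cells. The numbers of members at least 1.5-fold higher were 2 and 6 for Tnfrsf9, 3 and 1 for Klrg1 and 1 and 1 for Myc. The numbers at least 1.5-fold lower were 1 for ICRE in spleen, 7 for Klrg1 in spleen and 0 for Myc in LN. Impdh2 for ICRE in LN turned to 0.067 on the log2 scale. Phgdh for ICRE in spleen turned to 0.18 on the log2 scale. Without cycling cells, the summed log2 ratios were -0.042 and -0.12 for ICRE, 0.12 and 0.21 for Tnfrsf9, 0.14 and 0.12 for Klrg1, 0.13 and 0.091 for Myc, -0.036 for Tnfrsf9 within ICRE-positive cells in spleen and 0.0026 and 0.053 for Tnfrsf9 within Foxp3-positive cells. The counts of members at least 1.5-fold higher were 2 for ICRE in LN, 2 and 5 for Tnfrsf9, 2 and 2 for Klrg1 and 0 and 1 for Myc. The counts at least 1.5-fold lower were 1 between tissues, 3 and 0 for ICRE and 2 for Klrg1 in LN. Shmt2 for Tnfrsf9 in LN turned to -0.055 on the log2 scale. Psat1 for Myc in LN turned to -0.15 on the log2 scale. Without the deepest 5% of cells, the summed log2 ratios were -0.086 and -0.11 for ICRE, 0.12 and 0.18 for Tnfrsf9, 0.080 for Klrg1 in spleen, 0.068 and 0.027 for Myc, -0.022 for Tnfrsf9 within ICRE-positive cells in spleen and 0.078 and 0.11 for Tnfrsf9 within Foxp3-positive cells. The numbers of members at least 1.5-fold higher were 1 for ICRE in LN, 3 and 4 for Tnfrsf9, 2 and 1 for Klrg1 and 0 and 0 for Myc. The numbers at least 1.5-fold lower were 2 between tissues, 3 and 1 for ICRE and 1 for Klrg1 in LN. Psat1 for Myc in LN turned to -0.31 on the log2 scale. Without cells bearing markers of other lineages, the summed log2 ratios were -0.20 for ICRE in spleen, 0.31 for Tnfrsf9 in LN, 0.13 for Klrg1 in spleen, 0.37 for Myc in LN and 0.22 for Tnfrsf9 within Foxp3-positive cells in LN. The counts of members at least 1.5-fold higher were 6 for Tnfrsf9 in LN, 2 and 2 for Klrg1 and 5 for Myc in LN. The counts at least 1.5-fold lower were 2 between tissues, 3 for ICRE in spleen and 2 for Klrg1 in spleen. With every cell weighted equally, the summed log2 ratios were -0.14 and -0.19 for ICRE, 0.17 and 0.26 for Tnfrsf9, 0.25 for Klrg1 in spleen, 0.22 and 0.22 for Myc, 0.0033 for Tnfrsf9 within ICRE-positive cells in spleen and 0.17 and 0.23 for Tnfrsf9 within Foxp3-positive cells. The numbers of members at least 1.5-fold higher were 3 and 6 for Tnfrsf9 and 6 and 5 for Myc. The numbers at least 1.5-fold lower were 1 between tissues, 5 for ICRE in spleen, 2 for Klrg1 in spleen and 2 for Myc in LN. With ribosomal and mitochondrial genes left out of the totals, the summed log2 ratios were -0.36 and -0.45 for ICRE, 0.31 and 0.37 for Tnfrsf9, 0.052 and 0.11 for Klrg1, 0.52 and 0.45 for Myc and 0.21 for Tnfrsf9 within Foxp3-positive cells in spleen. The counts of members at least 1.5-fold higher were 1 for ICRE in LN and 1 and 5 for Klrg1. The counts at least 1.5-fold lower were 4 for Klrg1 in spleen. With gates at 2 UMIs, the summed log2 ratios were 0.61 and 0.65 for Tnfrsf9, 0.14 and 0.59 for Klrg1 and 0.74 and 0.70 for Myc. The numbers of members at least 1.5-fold higher were 19 and 21 for Tnfrsf9 and 2 and 6 for Klrg1. The numbers at least 1.5-fold lower were 0 for ICRE in spleen, 1 and 0 for Klrg1 and 0 for Myc in LN. Impdh2 for Klrg1 in spleen turned to 0.028 on the log2 scale. With a minimum of 50 expected UMIs, the counts of members at least 1.5-fold higher were 2 and 2 for Klrg1 and 5 and 5 for Myc. The counts at least 1.5-fold lower were 2 and 3 for ICRE, 0 for Klrg1 in spleen and 0 for Myc in LN. Without Myc-positive cells, the summed log2 ratios were 0.28 and 0.38 for Tnfrsf9. Without Tnfrsf9-positive cells, the summed log2 ratios were 0.24 and 0.20 for Myc. The counts of members at least 1.5-fold higher were 3 and 2 for Myc. Summed ratios and counts not listed for a setting kept within these limits, or had no value there. A value is missing where a group held under 50 cells with gates at 2 UMIs, or where a setting was not run. Between tissues, 50 bins were not run. Within ICRE-positive or Foxp3-positive cells, gates at 2 UMIs and the minimum of 50 expected UMIs were not run, and members were not counted. The cell filter moved none of them past these limits. The cause of each move was not tested, beyond the smaller number of cells or counted genes that leaving cells out or raising the minimum brings. Shares over all genes past 1.5-fold are not given for these settings, so a changed count may not be particular to the members. No paired analysis was possible because there is 1 library per tissue and no replicate. The depth weights, the cycling cells and the deepest cells overlap, so these alternatives are not independent. The gate genes are seen in a share of the cells that use them, so each negative group can hold cells of the positive kind. With 1 library per tissue, no interval covers the spread between animals.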
